A study of Caenorhabditis elegans with 2 samples.

Results

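The tRNA genes of the X chromosome of Caenorhabditis elegans were examined for peaks of NHR-41, a nuclear receptor whose vertebrate relatives are TR2 and TR4. All 276 genes annotated as tRNA on X were taken, of 612 such nuclear genes, and each was given 500 bp on both sides. The other 336 lay on the autosomes. Each gene was included by its annotated biotype and chromosome. NHR-41 binding was measured by ChIP-seq, the sequencing of DNA recovered with a protein by immunoprecipitation, in whole L4 larvae of the strain RW12221. In this strain the endogenous nhr-41 gene on chromosome IV carries an insertion of TY1, EGFP and 3xFLAG made with CRISPR. The worms were starved as L1 larvae after bleaching to synchronise them and collected at 48.5 h, and an antibody against GFP recovered the tagged protein. There was 1 group of 2 biological replicates, both with the tag, so results are descriptions of peak lists and no test between conditions was possible. Tissues were pooled in whole animals and 1 tagged strain was used, and no peak list from untagged animals or input was used here.

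Transfer RNA genes are transcribed by RNA polymerase III from a promoter that lies inside the gene. An A box near the start and a B box near the end of the gene bind the factor TFIIIC, which places TFIIIB upstream of the start, and transcription ends at a run of T after the gene. Many tRNA genes have the same sequence as others in the genome, and in C. elegans a large number lie on X, alone, in small groups or in introns of other genes.

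The authors' conservative list, which draws on both replicates, contained 1069 peaks, and 255 of them lay on X. A summit of this list lay within 500 bp of 134 of the 276 X tRNA genes (48.6%), and such genes are called bound below. The same rule gave 42.0% of all nuclear tRNA genes, 36.6% of the autosomal ones, and 3.59% of all nuclear genes of any biotype. The 134 genes shared 109 peaks, which were 42.7% of the X peaks. The windows around the genes cover 244 kb, 1.38% of the length of X. The difference between X and the autosomes was not tested here, because neighbouring genes share peaks and genes share sequences. By chromosome the bound share was 48.6% on X, 42.1% on II, 39.4% on IV, 39.1% on III, 37.9% on I and 26.9% on V. Read depth was unknown, since peak lists carry no read totals.

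The gene C04A11.t1, a leucine tRNA gene of 119 bp whose sequence occurs once in the genome, carried the second strongest peak at an X tRNA gene. Its whole peak is shown because the gene has no identical copy, and 71.4% of its stretches of 36 bases are unique in the genome. The peak is chrX:13665441-13665724 on the plus strand (genome build ce11, RefSeq sequence of WBcel235), and capitals mark the tRNA gene, chrX:13665555-13665673.
C04A11.t1 peak: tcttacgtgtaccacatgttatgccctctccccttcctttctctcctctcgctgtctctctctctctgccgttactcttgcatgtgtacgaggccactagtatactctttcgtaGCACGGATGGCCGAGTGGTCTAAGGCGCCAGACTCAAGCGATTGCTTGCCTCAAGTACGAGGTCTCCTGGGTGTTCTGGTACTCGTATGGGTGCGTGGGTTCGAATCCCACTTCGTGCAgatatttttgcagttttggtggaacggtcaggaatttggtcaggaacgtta
The genes below are shown to set bound beside unbound sequences, by the conservative list. C33G3.t2 (lysine), F15G9.t2 (alanine) and R04D3.t2 (valine) lay at 3 of the 10 strongest peaks. C04E7.t1 (leucine) was the only bound gene among 9 with its sequence. C16B8.t1 (proline) and F28H6.t2 (histidine) were unbound genes of sequences bound at other copies. The histidine sequence was bound at 2 of 8 X genes and 2 of 3 autosomal genes. F49E7.t3 (arginine) was unbound, as were all 3 X genes of its sequence. Each is printed 5′ to 3′ along the gene, and capitals mark matches to the A box GCNNAGNNG and the B box GTTCGANNC.
C33G3.t2, chrX:14063946-14064018, minus strand: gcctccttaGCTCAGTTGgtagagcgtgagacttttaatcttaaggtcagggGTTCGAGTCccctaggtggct
F15G9.t2, chrX:9743747-9743818, plus strand: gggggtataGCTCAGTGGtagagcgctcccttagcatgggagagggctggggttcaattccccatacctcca
R04D3.t2, chrX:13307034-13307106, plus strand: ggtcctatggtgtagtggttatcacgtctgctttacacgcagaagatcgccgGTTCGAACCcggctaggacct
C04E7.t1, chrX:353255-353336, minus strand: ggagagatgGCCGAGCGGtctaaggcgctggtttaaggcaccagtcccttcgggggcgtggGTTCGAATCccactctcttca
C16B8.t1, chrX:3969556-3969627, plus strand: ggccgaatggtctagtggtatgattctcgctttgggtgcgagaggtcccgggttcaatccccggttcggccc
F49E7.t3, chrX:1089173-1089245, minus strand: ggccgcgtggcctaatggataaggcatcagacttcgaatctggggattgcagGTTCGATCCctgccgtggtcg
F28H6.t2, chrX:14135045-14135116, plus strand: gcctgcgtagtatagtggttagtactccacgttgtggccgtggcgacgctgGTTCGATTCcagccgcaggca

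Bound and unbound genes held the letters of the internal promoter at shares near each other, and the differences were not tested. A match to the B box pattern GTTCGANNC, searched along the gene strand, was found in 200 of 276 X tRNA genes (72.5%). It began at base 53 in the median, counted from 1 at the first base. It stood in 68.7% of bound and 76.1% of unbound genes, against 0.476% of 72 bp tiles of X searched on both strands. The A box was found in 116 genes (42.0%), began at base 10 in the median, and stood in 42.5% of bound and 41.5% of unbound genes, against 4.43% of tiles. Among the genes shown, F49E7.t3 and F28H6.t2 hold the B box and were unbound. F15G9.t2 and C16B8.t1 hold GTTCAA near their ends, which the pattern leaves out, so a gene without a match can hold a close variant. The A box count includes the tryptophan genes, whose match begins at base 61. TTTT followed the gene within 50 bp in 273 genes, against 50.5% of windows of 50 bp along X on 1 strand. It began 5 bp after the gene in the median.

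Summits sat on the tRNA genes themselves. Of the 109 peaks, 79 had their summit inside the nearest tRNA gene (72.5%), although the gene filled 6.72% of its window in the median. The median summit lay 26 bp past the first base of the gene along its strand (middle 50% of peaks from 4 to 41 bp), and 104 summits (95.4%) lay within 50 bp of the gene. A further 23 summits were upstream of the first base and 7 downstream of the last. At autosomal tRNA genes the median was 22 bp, and 73 of 110 summits were inside the gene (66.4%). At 78 peaks whose gene held a B box, the summit lay 34 bp before the start of that box in the median, and 68 of the 78 lay before it. At 51 peaks whose gene held an A box, the median summit lay 19 bp after its start. The most distant summit, at 464 bp, was a second peak of F34H10.t1, an alanine tRNA gene with another summit 2 bp past its first base. Peaks were 284 bp wide at 108 of 109 sites with the summit at the midpoint, so a summit gives the centre of a region wider than the gene.

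**Figure D1:**
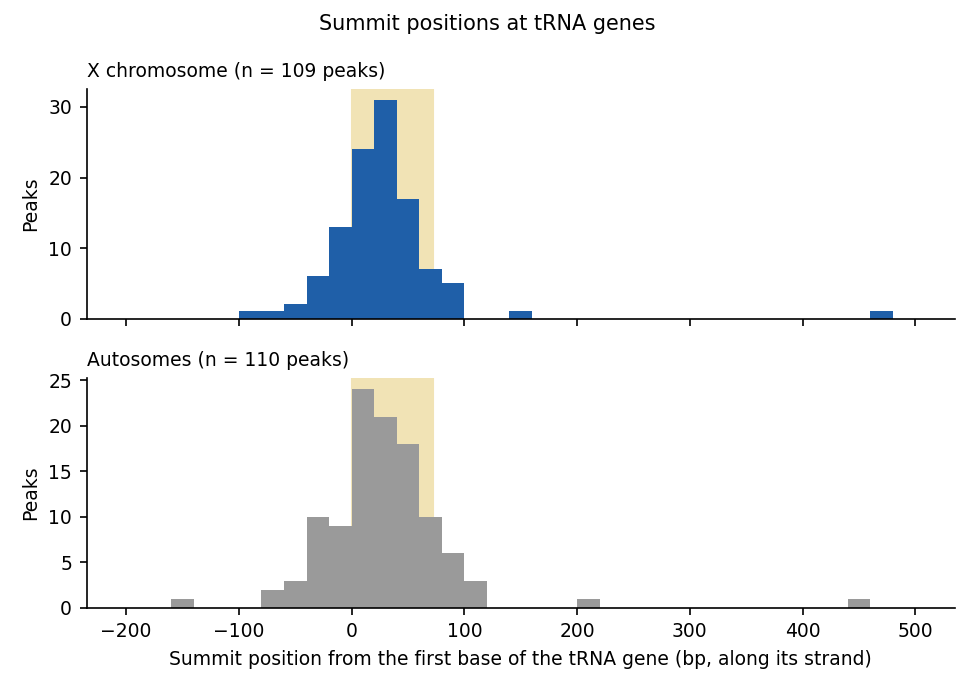
Position of the peak summit from the first base of the nearest tRNA gene (bp along the gene strand, horizontal) against the number of conservative peaks in bins of 20 bp (vertical), for X above the autosomes. The shaded band spans 72 bp, the median length of the X genes, and holds most summits in both panels (79 of 109 inside the gene on X, 73 of 110 on the autosomes). The autosomal summit at -233 bp is counted but lies outside the range drawn.

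Genes that lay alone were bound as well. Of 141 X tRNA genes with no other tRNA gene within 1000 bp, 69 were bound (48.9%), against 75 of the autosomal genes so placed (31.9%). Their 71 peaks on X had a median summit position of 26 bp, and 55 of the summits were inside the gene. In the windows of 129 X genes there was 1 summit, and 5 genes had 2, namely F34H10.t1, C49F5.t1, H08J11.t4, F46G11.t1 and F46G11.t2. Of the 109 peaks, 86 had 1 tRNA gene within 500 bp of the summit, 18 had 2, 4 had 3 and 1 had 5.

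Peaks at X tRNA genes covered a wide range of signal. Their signal, the value of the authors' peak caller, ran from 6.34 to 247 with a median of 89.8. The median was 82.9 at the autosomal tRNA genes, 80.8 at the other X peaks and 81.7 at the other autosomal peaks. The reproducibility score, which the authors capped at 1000, was at its cap for 93 of the 109 peaks (85.3%). It was at the cap for 72.7% of peaks at autosomal tRNA genes, 75.3% of other X peaks and 70.7% of other autosomal peaks. None of these differences was tested.

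The strongest peak, with a signal of 247, was the seventh strongest of the whole list. Its summit lay 6 bp past the start of M02F4.t1, a glycine tRNA gene, with the glutamate tRNA gene M02F4.t2 also in the window, and the peak was 125 bp wide. Its signal was 95.9 in replicate 1 and 144 in replicate 2, a mean of 119.8 ± 33.8 (SD, n = 2). C04A11.t1 followed with 210, with 106 in replicate 1 and 95.3 in replicate 2 (mean 101 ± 7.66, SD, n = 2), and its summit lay 28 bp past the start of the sequence shown above. In these first 2 peaks the order of the replicates differed.

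C33G3.t2, a lysine tRNA gene, had a peak of 164 whose summit lay 9 bp upstream of it, with 71.9 in replicate 1 and 89.6 in replicate 2. C28G1.t1 (glutamate, 154) overlapped an exon, the single X tRNA gene to do so. W03G11.t1 (lysine, 149) had nearly equal replicate signals of 70.4 and 72.9. The sixth peak, of 142, lay 34 bp upstream of F15G9.t2 in an intron of him-4, which encodes the extracellular matrix protein hemicentin, and the alanine gene F15G9.t1 shared it. The remaining peaks of the first 10 lay at F52H2.t1 (aspartate, 139), C02B4.t2 (tyrosine, 136), R04D3.t2 (valine, 127) and W02H3.t1 (leucine, 126). These 10 peaks belonged to genes of 8 amino acids.

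Replicate 2 gave the higher signal at most of these peaks. Each replicate's own signal was found for 107 of the 109, with a median of 39.0 in replicate 1 and 48.7 in replicate 2, and replicate 2 was higher at 76 of 107 (71.0%). It was higher at 71.6% of peaks at autosomal tRNA genes, 80.3% of other X peaks and 77.8% of other autosomal peaks. Across the 107 peaks, which share the same 2 libraries, Pearson r was 0.513 and Spearman rho 0.287, and without the 2 peaks of highest signal r was 0.326. Among these 107, the largest ratios of replicate 2 to replicate 1 were 2.13 at E03E2.t3 (lysine), 2.09 at C04C11.t1 (glutamate) and 2.09 at R04D3.t5 (threonine). The peaks of C25F6.t4 and C18A11.t2, outside the 107, were not ranked. For them the joint list itself gives pairs of replicate values of 25.8 and 60.5, and of 30.9 and 62.1. E03E2.t3 had 55.98 in replicate 2 and 26.3 in replicate 1. The lowest ratio was 0.531, at K09A11.t1 (tyrosine), with 36.3 in replicate 2 and 68.4 in replicate 1. The lowest joint signal among the 109 peaks was 6.34, at C49F5.t1 (histidine). It came from a pair of replicate peaks of 31.9 and 48.7 that also gave the gene's other peak, of 81.3.

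**Figure D2:**
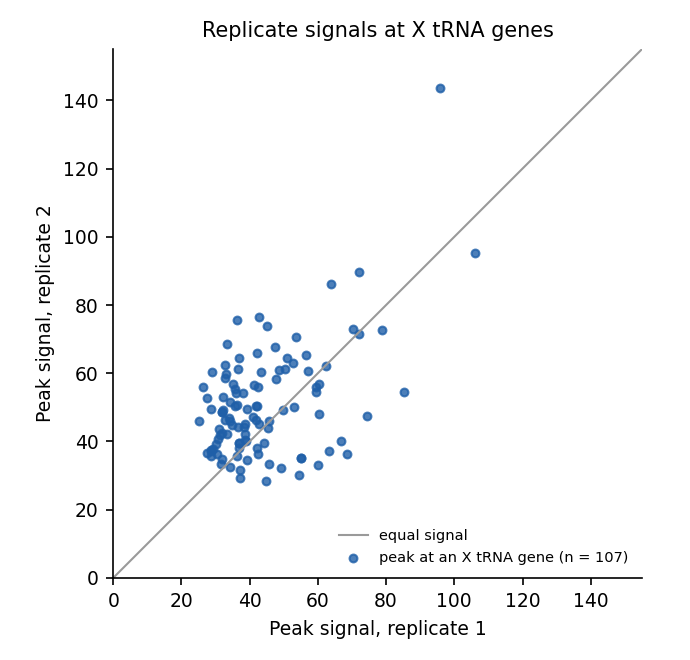
Signal of the peak in replicate 1 (horizontal) and replicate 2 (vertical) at 107 peaks near X tRNA genes, with the line of equal signal. Of the 107 points, 76 lie above the line, and the points of M02F4.t1 (95.9 and 144) and C04A11.t1 (106 and 95.3) stand apart from the rest.

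The replicates' own lists recovered fewer of the genes. The list of replicate 1 placed a summit within 500 bp of 52 X tRNA genes (18.8%) and that of replicate 2 of 95 (34.4%). Of the genes in either list, 39 were in both, 13 in that of replicate 1 alone and 56 in that of replicate 2 alone. Of the 134 genes bound in the conservative list, 40 were in neither replicate's own list and 38 were in both.

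Many unbound genes had a ranked peak of lower score near the gene. The list of all ranked peaks of both replicates had a summit in the window of 115 of the 142 unbound X genes (81.0%), against 166 of 213 unbound autosomal genes (77.9%). Counting bound genes too, such a summit lay at 249 of 276 X tRNA genes (90.2%), 289 of 336 autosomal ones (86.0%) and 48.5% of all nuclear genes of any biotype. Signal did not follow the score in every case. The best-scoring peak had a median signal of 48.7 and a highest of 90.0 at the unbound X genes, against a median of 89.6 and a lowest of 61.5 at the bound ones, so the ranges overlap. The lowest score of the conservative list was 830. The best peak scored 540 or more, but under that threshold, at 43 unbound genes, 30.3% of the unbound, against 46 of 213 unbound autosomal genes (21.6%). Its median position was 27 bp past the gene start, and 32 of these 43 summits lay within 50 bp of the gene. At the 72 genes whose best score was lower, the median position was 32.5 bp and 54 lay within 50 bp. Counting every gene with a score of 540 or more gives 177 of 276 (64.1%).

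The members nearest to the threshold differed little in signal. Just inside lay F55F3.t1 (lysine) with a score of 844 and a signal of 67.1, R11B5.t1 (threonine) with 846 and 75.04, and H06A10.t1 (proline) with 864 and 67.1. Just outside lay D1009.t2 (leucine) with a score of 821 and a signal of 73.6, and B0344.t3 and B0344.t2 (isoleucine), which share a peak with a score of 804 and a signal of 61.5.

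**Figure D3:**
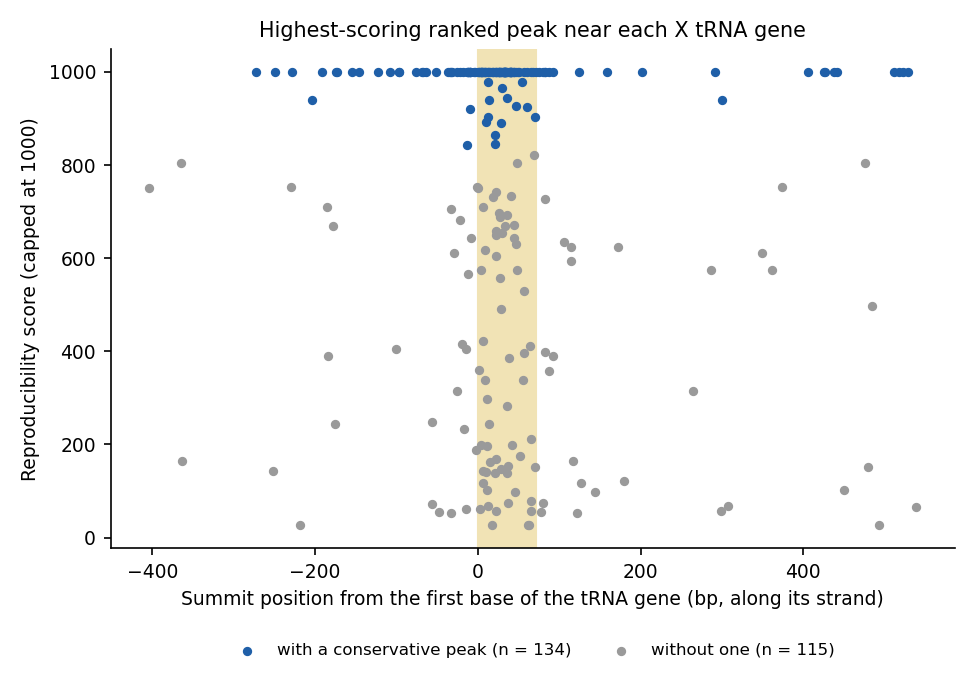
Score of the highest-scoring ranked peak near each X tRNA gene (vertical, capped at 1000) against its summit position from the first base of the gene (bp along the gene strand, horizontal), for 134 genes with a conservative peak and 115 without one. The shaded band spans 72 bp, and summits gather in it at low scores as well as at high ones, with the highest score of an unbound gene at 821.

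Genes for every amino acid class were bound, but in unequal shares. The share ran from 5 of 7 cysteine genes (71.4%), 14 of 20 glycine genes (70.0%) and 12 of 18 lysine genes (66.7%) down to 1 of 6 phenylalanine genes (16.7%) and 1 of 5 tryptophan genes. It was 5 of 8 for tyrosine, 8 of 13 for alanine, 11 of 20 for proline and 8 of 15 for glutamine. Aspartate had 6 of 12, methionine 4 of 8, threonine 7 of 14 and glutamate 11 of 23. Isoleucine had 6 of 13, serine 8 of 18 and valine 6 of 14. Below these stood leucine with 6 of 17, arginine with 9 of 27, asparagine with 2 of 6 and histidine with 3 of 9. Arginine is the largest class on X and was bound at 33.3%, against 35.3% of 17 arginine genes on the autosomes. Proline was bound at 55.0% on X and 22.7% of 22 on the autosomes, whereas leucine was bound at 6 of 17 on X and 11 of 22 on the autosomes. The classes hold few genes and share peaks, and these differences were not tested.

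**Figure D4:**
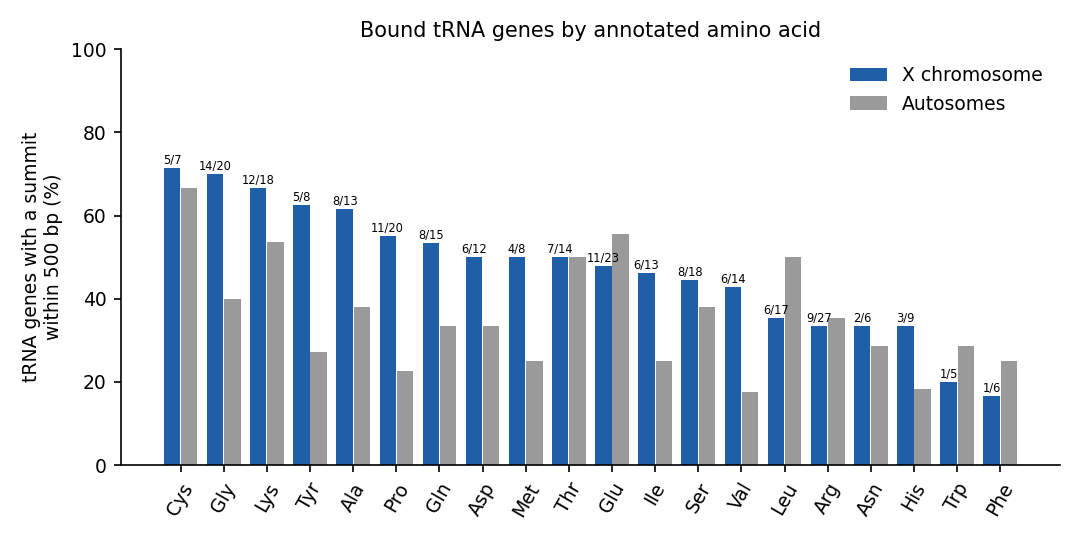
Share of tRNA genes with a conservative summit within 500 bp (percent, vertical) for each amino acid with 5 or more X genes, X at the left and the autosomes at the right of each pair, with bound and total X genes above the X bars. The X bars run from 71.4% for cysteine to 16.7% for phenylalanine.

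The anticodon, found by folding rules for the anticodon stem and loop in 256 of the 276 genes, split some of these classes. The following anticodons were chosen after their values were seen. Glycine genes with the anticodon TCC were bound at 12 of 16 on X and 10 of 20 on the autosomes. Glutamate genes with TTC were bound at 6 of 8 on X, and those with CTC at 5 of 15. On the autosomes the order was the reverse, with 4 of 9 for TTC and 6 of 9 for CTC. Leucine genes with AAG were bound at 1 of 10 on X and 4 of 9 on the autosomes, but at 3 of 10 on X and 3 of 9 on the autosomes in the other thresholded list. Arginine genes with TCG were bound at 0 of 6 on X and 3 of 3 on the autosomes. At the 6 X genes the highest ranked score was 143 at F38E9.t2, and 2 of the 6, C34E11.t1 and F17A2.t1, had no ranked summit in the window. F17A2.t1 nevertheless had a summit in the own list of replicate 2.

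Genes with the same sequence were often split between bound and unbound. The 276 genes hold 106 distinct sequences, and 35 of these have more than 1 exact match on X. They stand at 205 annotated X genes in all. Of these 35, 28 had bound and unbound members, 5 had bound members alone and 2 had none bound. The 5 include the sequences of F18G5.t1 and F18G5.t2, which stand at 1 annotated X gene each and so have no second annotated member. In both genes the A box began at base 11, against base 10 in the other X alanine genes with the anticodon AGC. The sequence of those other genes stands at 7 annotated X genes but has 9 exact matches on X. Whether an annotation offset divides F18G5.t1 and F18G5.t2 from that sequence was not tested. The proline sequence shown for C16B8.t1 stands at 13 X genes, of which 6 were bound with peak signals of 67.1 to 111, and the best scores of the other 7 ran from 61 to 709. The other thresholded list of the authors has summits at 8 of the 13, C16B8.t1 among them, which is also in the own list of replicate 2. The leucine sequence shown for C04E7.t1 stands at 9 X genes and no autosomal gene. C04E7.t1 had a peak of 112 with its summit inside the gene, found in both replicates' own lists. The best scores of the other 8 ran from 101 at C05C9.t1 and C05C9.t2 to 821 at D1009.t2. The authors' other thresholded list has summits at 3 of the 9, with F14B8.t1 and D1009.t2 added.

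The sequence with the most X genes among the 5 with bound members alone was a glycine tRNA with the anticodon TCC. All 11 X genes with it were bound, through 8 peaks with signals from 68.3 to 247, against 9 of 18 autosomal genes of the same sequence. Besides M02F4.t1, its peaks included 120 at F56C3.t1, with 42.7 in replicate 1 and 76.3 in replicate 2, and 115 at T10B10.t2, with 59.5 and 54.4. The lowest, at R04E5.t3, had 31.8 in replicate 1 and 34.9 in replicate 2. Neighbouring members shared peaks, as at ZK154.t3 and ZK154.t4, and 4 of the 11 had a summit inside the gene. R04E5.t4 was bound through a summit inside the cysteine gene R04E5.t5 beside it, and with 250 bp to each side 10 of the 11 were bound. In the replicates' own lists 4 of the 11 were bound in replicate 1 and 6 in replicate 2. The alanine sequence of T07H6.t1, T07H6.t2 and F15G9.t1 was bound at all 3 X genes, with signals of 115 to 142, and at 0 of 5 autosomal genes. Only 1 of these 3 had a summit inside the gene. The peak of 142 was nearest to F15G9.t2, an alanine gene of another sequence. At the other end, the arginine sequence shown for F49E7.t3 was bound at 0 of 3.

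**Figure D5:**
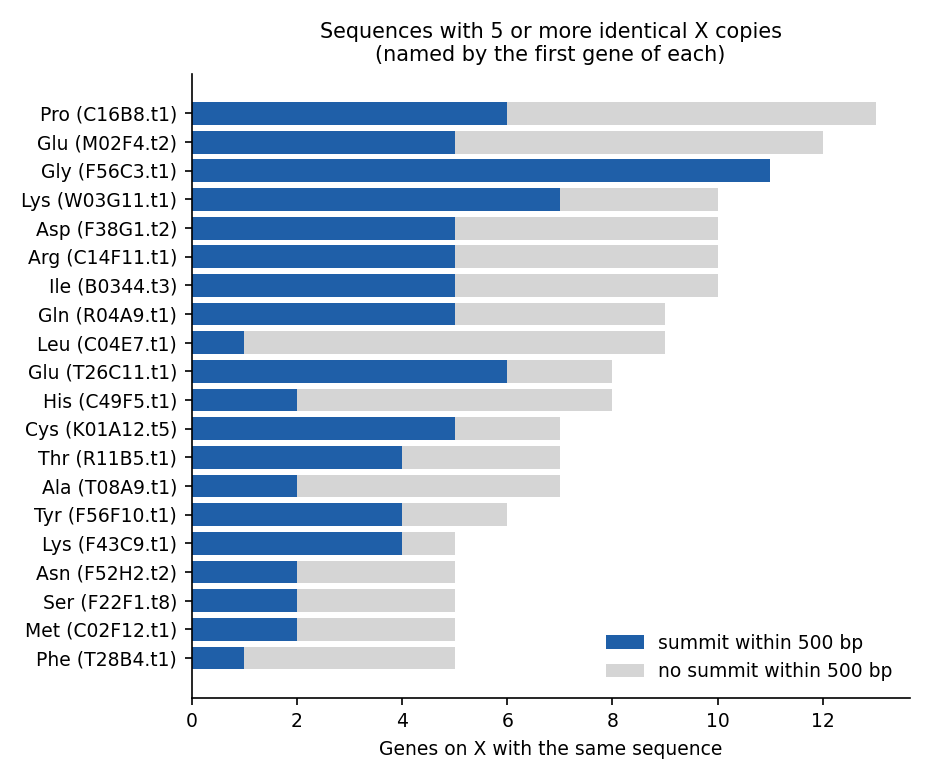
Number of X tRNA genes that share 1 sequence (horizontal) for each sequence with 5 or more X genes, named by amino acid and first gene, with bound genes in blue and unbound ones in grey. The glycine sequence of F56C3.t1 is bound at all 11 genes, whereas the leucine sequence of C04E7.t1 is bound at 1 of 9.

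Bound genes were found both with and without an identical copy elsewhere in the genome. Of 55 X genes without a copy 18 were bound (32.7%), and of 221 with a copy 116 were (52.5%). On the autosomes 20 of 85 without a copy were bound (23.5%) and 103 of 251 with one. Summits fell inside the gene for 5 of the 55 X genes (9.09%) and for 74 of the 221 (33.5%). On the autosomes these shares were 15.3% without a copy and 23.9% with one. Among X genes alone within 1000 bp, 5 of 28 without a copy were bound (17.9%) and 64 of 113 with one (56.6%). The gap was smaller among autosomal genes so placed, with 17 of 71 (23.9%) and 58 of 164 (35.4%). Reads from identical copies can be placed only by flanking sequence, and the sources used here do not give how the authors treated such reads. No stretch of 36 bases was unique in the genome within 116 of the 134 bound and 106 of the 142 unbound genes. The windows of 500 bp to each side were mostly unique, with a median of 94.6% of such stretches at bound and 93.6% at unbound genes. The differences between these shares, and the part of read placement in them, were not tested.

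Both intronic and intergenic genes were bound. In introns of protein-coding genes 49 of 95 X tRNA genes were bound (51.6%), against 66 of 188 on the autosomes (35.1%). In intergenic sequence 84 of 180 were bound on X (46.7%), against 55 of 139 on the autosomes (39.6%). The order of intronic and intergenic X genes turned in the other thresholded list, with 51.6% and 53.3%, and in the list of replicate 2 alone, with 31.6% and 35.6%. Genes on the strand opposite to the host were bound at 25 of 45 and those on the same strand at 24 of 50. The intronic genes lay in 67 hosts, of which 35 held a bound gene, and 8 hosts held 3 or more.

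Within these 8 hosts, all genes or none were bound in 5. All 5 genes in ajm-1, which encodes a component of the apical junction of epithelia, and all 5 in K01A12.3 were bound. None of 3 was bound in deg-1, which encodes a DEG/ENaC channel subunit, in unc-58, a member of a potassium channel family, or in wrt-9, of the hedgehog-related warthog family. The best ranked scores in these 3 hosts were 67, 574 and 804. In pix-1, srxa-9 and tbc-12, 2 of 3 were bound.

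In dense groups several tRNA genes lay within 500 bp of 1 peak. X tRNA genes whose starts lie within 1000 bp of the next form 198 groups. Genes in groups of 1 were bound at 73 of 145 (50.3%), in groups of 2 at 37 of 78 (47.4%), in groups of 3 at 8 of 27 (29.6%) and in groups of 4 or more at 16 of 26 (61.5%). The 5 genes in K01A12.3, for arginine and cysteine, shared 1 peak with a signal of 80.2, whose summit lay inside K01A12.t4. In ajm-1 the 5 glutamine genes had 2 peaks, of 86.6 inside H08J11.t5 and 84.8 inside H08J11.t3. The 6 genes of the F22F1 group had 1 peak, of 90.5, at the methionine gene F22F1.t6, and 3 of the 6 lay within 500 bp of it. Each of the 6 histidine genes of the F28H6 group, which alternate in strand and have the sequence shown for F28H6.t2, was unbound. The best ranked score was 612 at F28H6.t4 and F28H6.t5 and 574 at F28H6.t2 and F28H6.t7. No ranked summit lay in the windows of F28H6.t3 and F28H6.t6. The windows of the 6 genes are repetitive. Their share of stretches of 36 bases unique in the genome ran from 2.70% at F28H6.t3 and F28H6.t6 to 65.6% at F28H6.t2. The other X genes of that sequence, C49F5.t1 and C06G1.t1, were bound, with highest signals of 81.3 and 99.4, and their windows were unique at 86.3% and 94.9%. The part of sequence uniqueness in this contrast was not tested.

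Bound genes were found along the whole chromosome. In bins of 2 Mb from the left end, 4 of 17, 12 of 16, 11 of 18, 8 of 18, 34 of 71, 12 of 23, 25 of 45, 17 of 34 and 11 of 34 tRNA genes were bound. The share was lowest in the first bin (23.5%) and highest in the second, and the fifth bin holds the most genes. The longest stretch of X between tRNA genes, chrX:16928341-17611289 from C30E1.t1 to C16H3.t1, spans 682947 bp and held 9 conservative peaks with signals of up to 106.

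The nuclear receptor half-site AGGTCA, to which receptors of the TR2 and TR4 type bind as repeats in vertebrates, stood at a minority of these peaks. It was found on either strand within 75 bp of the summit at 10 of 109 peaks at X tRNA genes (9.17%). The share was 10.9% at autosomal tRNA genes, 10.3% at the other X peaks and 3.98% of windows of the same length along X. Inside the X tRNA genes it occurred in 21 of 276 (7.61%). These were all 8 tyrosine genes, all 6 phenylalanine genes, 5 lysine genes with the anticodon TTT, and 1 isoleucine and 1 leucine gene. In 0 of the 21 did it overlap a match to the A or B box. Of those genes, 5 of 8 for tyrosine, 4 of 5 for lysine and 1 of 6 for phenylalanine were bound. The isoleucine and the leucine gene were unbound. Among all X tRNA genes the bound share was 48.6%, and a link between the half-site and binding was not tested.

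Protein-coding genes of tRNA biology had promoter summits at about the share of all protein-coding genes, 2.68%. Of 33 genes for aminoacyl-tRNA synthetases, which load tRNAs with amino acids, 1 had a summit in its promoter, taken as the 1000 bp before and 200 bp after a transcript start: ears-2, with a signal of 87.7. Of 11 genes for subunits and factors of RNA polymerase III and for tRNA processing, 0 had one. Among other RNA polymerase III transcripts, a summit lay within 500 bp of rpr-1 (234) and mrpr-1 (124), which encode the RNAs of RNase P and RNase MRP. None lay within 500 bp of yrn-1, and 0 of 16 5S rRNA genes had one.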

How the data were processed

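The authors deposited peak lists on genome build ce11, made from the alignments of the replicates and a control alignment per the submitters' notes. The sources used here name no aligner or peak caller and do not say how multiply placed reads were treated. Each peak has a score, deposited as a reproducibility (IDR) score capped at 1000. The deposited signal is the value of the authors' peak caller, on a scale not given in those sources. Fragments had been sheared to 200 to 800 bp per the labels. Used here were the conservative list (1069 peaks), the other thresholded list (1136), the list of replicate 1 (347) and of replicate 2 (676), and the ranked list of both replicates (48276). Replicate signals were taken from each replicate's ranked list at the coordinates that the joint list names. A further 6 columns of such signals were not used.

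Genes came from Ensembl release 115 on WBcel235 (the same assembly as ce11), and all 276 matched RefSeq. A summit was the start plus the offset. Copies were exact matches in the genome on either strand. Positions count from 0 at the first base of the gene for summits and from 1 for boxes. Python 3.11.15, pandas 2.3.3, numpy 2.4.6 and matplotlib 3.10.9 were used, and the placement of summits was tested on simulated data. The X tRNA genes as a subject, and the lists, were chosen with earlier results of these data known. Named were the genes at the 10 strongest peaks, 3 on each side of the score threshold, amino acids with 5 or more X genes, hosts with 3 or more, groups of 4 or more, and the genes with the most extreme replicate ratios. Genes with the most summits were named too. The labels' replicates are called biological, and no p-value was computed.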

Additional observations from a re-analysis of the deposited data

How the results depend on the processing

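Of the recomputed values, 68 stayed within 1.5 times the reported count or within the spread between replicates, and 18 did not. The bound X genes enter this tally both as a count and as a share. For the shares, the spread is the SD between the single-replicate lists, which are also among the settings judged. With the list of 1 replicate alone, bound X tRNA genes numbered 52 to 95 against 134, genes with a summit inside 26 to 48 against 79, and peaks 39 to 74 against 109. The bound share then was 18.8 to 34.4% on X and 8.93 to 19.9% on the autosomes, 18.9 to 31.6% for intronic and 18.3 to 35.6% for intergenic X genes, and 21.3 to 37.1% with an identical copy and 9.09 to 23.6% without one. The median signal was 55.1 to 56.3 and the median summit position 26 to 30 bp. These lists hold fewer peaks. With a score of 1000 the bound share was 42.4% on X and 26.8% on the autosomes. The other thresholded list, 1 peak per pair of replicate peaks, flanks of 250 and 1000 bp, and overlap by 1 bp gave 124 to 146 bound X genes, and the X share stood above the autosomal one under each. No paired analysis was possible because there is 1 group and no result comes from a test. Unknown depth limits every statement that a gene is unbound, and 115 of 142 unbound X genes had a ranked peak of lower score.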
